A study of Mus musculus with 14 samples.

Results

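The genes that flank *Wap* and *Tbrg4* on mouse chromosome 11 were described in the lactating mammary gland of wt/Wap-Tbrg4 mice. They were chosen by position and name, as 10 genes on both sides of the *Wap* super-enhancer, and 9 of them had values among the 20515 genes with a usable symbol. The expression of the tenth, *Purb*, is not analysed here, and only its position and promoter are described. The study asked how the *Wap* super-enhancer acts on its own promoter and on the promoter of its neighbor *Tbrg4*. RNA-seq came from the L10 (day 10 of lactation) mammary tissue of 2 C57BL/6 mice labelled WT_wTbrg4, which carry 1 wt allele and 1 Wap-Tbrg4 allele. In the Wap-Tbrg4 allele, CRISPR removed the sequence from the *Tbrg4* promoter to the *Wap* promoter, so that the super-enhancer and promoter of *Wap* drive a hybrid *Tbrg4* gene. Both mice share this genotype, and no RNA-seq of other genotypes and none of the ChIP-seq samples is analysed here, so the values describe levels in these glands and not an effect of the deletion. Reads of both alleles are counted together, and the tissue is a whole gland that holds several cell types.

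A super-enhancer is a group of enhancers that lie close together and are densely bound by transcription factors. In the mammary gland, prolactin activates STAT5, which binds such elements and drives milk protein genes, of which *Wap*, the gene of whey acidic protein, is a classic example. Enhancers do not act on every gene around them: promoter type, distance and chromatin boundaries are all known to influence which genes respond. The flanking genes have unrelated functions. On the *Tbrg4* side lie *Ogdh* (a subunit of the 2-oxoglutarate dehydrogenase complex of the citric acid cycle), *Zmiz2* (a coactivator with a PIAS-like zinc finger), *H2afv* (a histone variant of the H2A.Z type), *Purb* (a protein that binds purine-rich nucleic acid), *Myo1g* (a class I myosin of blood cells), *Ccm2* (a scaffold protein of the cerebral cavernous malformation complex) and *Nacad* (a protein with a domain of the nascent polypeptide associated complex). On the super-enhancer side lie *Ramp3* (a coreceptor for calcitonin family receptors), *Adcy1* (a calcium-stimulated adenylyl cyclase) and *Igfbp3* (a secreted binding protein for insulin-like growth factors).

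The sequence between *Wap* and the nearest flanking gene on the super-enhancer side, *Ramp3*, was read from GRCm38 (mm10), and positions are on chromosome 11. The STAT5 recognition sequence TTCNNNGAA, which reads the same on both strands, had 8 matches between the *Wap* start and the *Ramp3* start. Of these, 4 lie within 7000 bases of the *Wap* start, where the super-enhancer is found, and the match closest to *Ramp3* lies 970 bp from its start. They are shown because they lie between the gene with the highest level of the locus and a neighbor listed at 0.4 and 0.0 exon FPKM. Capitals mark the match, with 10 bases on either side, on the minus strand, which is the strand of *Wap*.
565 bp upstream of *Wap*, chr11:6639210-6639218: gtatgggcccTTCTGGGAAgtggccttcc
1333 bp upstream of *Wap*, chr11:6639978-6639986: acacagggccTTCTGGGAAactcaagcag
5551 bp upstream of *Wap*, chr11:6644196-6644204: aatgtcttcaTTCCTAGAAccttctggct
5970 bp upstream of *Wap*, chr11:6644615-6644623: tagtcgtgacTTCACTGAAgagggagaga
18914 bp upstream of *Wap*, chr11:6657559-6657567: cactacaactTTCTGTGAAttttcactga
The other 3 matches lie 11806, 12226 and 14328 bp upstream of *Wap*. These 3 and the match closest to *Ramp3* lie within the annotated span of *Gm11978* (chr11:6650148-6660236, minus strand), so the stretch is not all intergenic. Windows of 7000 bases with 4 or more matches make up 25.2% of the 16962 such windows of chromosome 11, whose median is 2 matches. The motif by itself therefore does not set these 7000 bases apart from the rest of the chromosome. A match is a run of letters and not a measured binding site.

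The promoters of *Wap* and *Ramp3*, which point away from each other, are shown because they flank the super-enhancer and differ in CpG content. The super-enhancer adjoins *Wap*, whereas the *Ramp3* start lies beyond it, 19.884 kb from the *Wap* start. Each line holds the 250 bases before the RefSeq start (GRCm38.p6), 5′ to 3′ on the strand of the gene, with CpG dinucleotides in capitals.
*Wap*, chr11:6638650-6638899, minus strand: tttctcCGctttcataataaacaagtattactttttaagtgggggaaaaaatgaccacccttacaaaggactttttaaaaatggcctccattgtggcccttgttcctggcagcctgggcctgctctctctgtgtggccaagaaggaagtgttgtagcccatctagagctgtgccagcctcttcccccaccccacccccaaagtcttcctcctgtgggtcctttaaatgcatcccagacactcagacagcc
*Ramp3*, chr11:6658283-6658532, plus strand: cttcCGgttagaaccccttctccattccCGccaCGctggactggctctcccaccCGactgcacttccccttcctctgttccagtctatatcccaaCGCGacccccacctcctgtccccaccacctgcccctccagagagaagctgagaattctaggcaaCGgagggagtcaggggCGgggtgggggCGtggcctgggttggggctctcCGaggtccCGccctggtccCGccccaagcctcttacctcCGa
The *Wap* stretch holds 1 CpG at a GC content of 49.6%, and the *Ramp3* stretch holds 13 at 65.2%.

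RefSeq promoters of 300 bases (250 before and 50 after the start) were at hand for 9 of the 10 flanking genes, all but *Zmiz2*. None of the 9 holds a match to TTCNNNGAA. *Wap*, *Tbrg4* and the rest of the 16 genes with a promoter from *Ogdh* to *Igfbp3* have none either. The absence therefore does not set the flanking genes apart from *Wap*. The match is found in a promoter of 9.55% of 27025 RefSeq genes and of 8.86% of the 16179 genes that also have values. The palindromic cAMP response element TGACGTCA, the full site of the CREB family, is found in a promoter of 2.03% and 2.80% of these genes, respectively, and in those of *Ogdh* and *Purb*, 2 of the 9. Over the whole stretch of the locus from *Ogdh* to *Igfbp3* it is found in 4 of 16 genes with a promoter, the others being *Snhg15* and *Tbrg4*. The 4 sites are shown with the element in capitals and 11 bases on either side, on the strand of the gene.
*Ogdh*, chr11:6291546-6291553, plus strand: acccaattctgTGACGTCAcgtcacgccca
*Purb*, chr11:6476098-6476105, minus strand: gcggggcggagTGACGTCAcgggaggcgcg
*Snhg15*, chr11:6528841-6528848, minus strand: cccaggggcgcTGACGTCAgtgtcttggag
*Tbrg4*, chr11:6626064-6626071, minus strand: cggcgcgccagTGACGTCAgtgagcgcgcc
The element of *Ogdh* is centered at -47.5 bp from the gene's first annotated start, and that of *Tbrg4* spans the start itself. The *Tbrg4* sequence is that of the wt allele, since the *Wap* promoter drives the hybrid gene on the other allele. All 4 genes lie on the *Tbrg4* side of *Wap*. *Wap* and the flanking genes on the super-enhancer side have no such element in these windows.

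The values are FPKM, fragments per kilobase of exon or intron, scaled between libraries by the authors, with 1 decimal. The low FPKM of short genes fell on steps, as they do where whole reads are divided by a gene's length. From 131 genes in replicate 1 and 100 genes in replicate 2, 1 read over 1 kb of exon was worth 0.0995 FPKM in replicate 1 and 0.197 FPKM in replicate 2. A given FPKM thus rests on 1.98 times as many reads in replicate 1. The share of these values within 0.25 reads of a whole number was 74.8% and 89.0%, where values spread evenly would give 50%. The exon FPKM correspond to about 12100000 exon reads in replicate 1 and 11300000 in replicate 2. Summed over all genes, exon FPKM came to 852960.6 in replicate 1 and 1788118.6 in replicate 2. The deposited scale thus does not set the mice to equal totals, and every ratio between them depends on it. Read numbers below are estimates from this scale and RefSeq lengths, and their 95% Poisson intervals (exact) cover counting error only. *Ppia*, a gene that most cells use, is also listed near 0.0, but unlike the flanking genes it has near-identical copies. The myoepithelial marker *Acta2*, which has no such copy, is listed at 0.0 in both mice as well. A value of 0.0 is therefore given as a listing and not as proof of silence.

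Among the flanking genes, *Ogdh* had by far the highest exon level. It was at 21.4 exon FPKM in replicate 1 and at 19.6 in replicate 2. The mean of 20.5 ± 1.27 (SD, n = 2 mice) ranks 1464 among the 20515 genes. These values rest on about 1528 and 708 reads, and their counting intervals, 20.3 to 22.5 and 18.2 to 21.1 FPKM, overlap. *Igfbp3* had an exon FPKM of 5.3 and 6.0 (5.65 ± 0.495, SD, n = 2), from about 130 and 75 reads. *H2afv* had an exon FPKM of 6.1 and 5.0 (5.55 ± 0.778, SD, n = 2), from about 100 and 42 reads. Both genes lay at similar percentiles of all genes by exon level, 75.7 and 75.4. *Ccm2* had an exon FPKM of 5.6 in replicate 1 and 2.7 in replicate 2 (4.15 ± 2.05, SD, n = 2), from about 118 and 29 reads. *Zmiz2* had an exon FPKM of 4.3 and 2.8 (3.55 ± 1.06, SD, n = 2), from about 175 and 58 reads. For *Ccm2* and *Zmiz2* the counting intervals of the mice did not overlap, at 4.62 to 6.68 against 1.82 to 3.90 FPKM and at 3.68 to 4.98 against 2.14 to 3.64 FPKM.

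The other 4 genes with values were below 1 FPKM in both mice. *Myo1g* had an exon FPKM of 0.9 in replicate 1 and 0.2 in replicate 2 (0.55 ± 0.495, SD, n = 2), which is about 30 reads against 3. Its counting intervals, 0.609 to 1.29 and 0.0368 to 0.522 FPKM, did not overlap. *Nacad* had an exon FPKM of 0.3 and 0.2 (0.25 ± 0.0707, SD, n = 2), from about 15 and 5 reads. *Ramp3* was listed at 0.4 and 0.0 exon FPKM, which is about 5 reads against 0. The counting interval of a count of 0 reaches up to 0.595 FPKM in replicate 2. The 2 *Ramp3* values therefore cannot be told apart at this depth. *Adcy1* was listed at 0.0 exon FPKM in both mice. Its collapsed exons span 12315 bp, so that after rounding a listing of 0.0 still allows up to about 6.19 reads in replicate 1 and 3.13 in replicate 2.

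**Figure D1:**
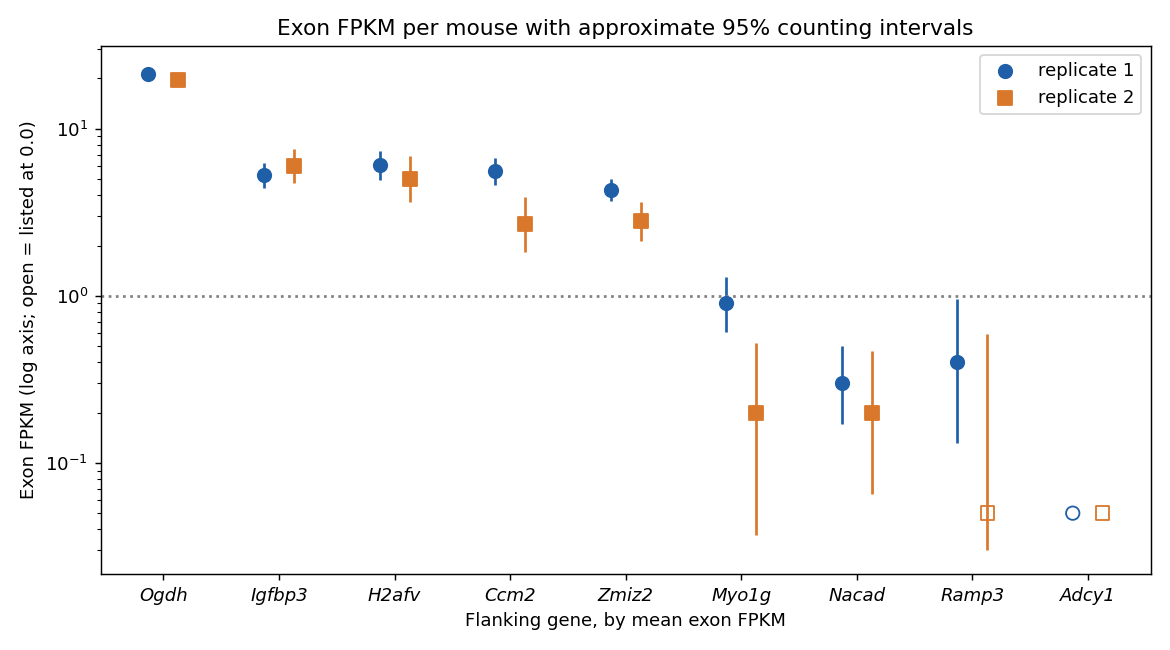
Exon FPKM (log axis) of the 9 flanking genes in replicate 1 (circles) and replicate 2 (squares), ordered by mean, with vertical lines for approximate 95% Poisson counting intervals. Open symbols are values listed at 0.0 and drawn at 0.05, *Adcy1* has no interval, the dotted line marks 1 FPKM, and lines that reach the base go on to lower values. *Ogdh* stands alone near 20.5, *Igfbp3*, *H2afv*, *Ccm2* and *Zmiz2* lie between 2.7 and 6.1, and the other 4 genes lie below 1.

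On average, 1 exon FPKM or more was reached by 5 of the 9 flanking genes, compared with 48.0% of all genes, so the share was near the background. A listing of 0.0 in both mice was found for 1 of 9, *Adcy1*, compared with 30.2% of all genes. The median of the mean exon FPKM was 3.55 over the 9 genes and 0.75 over all genes. Among genes at or above 1 FPKM the median was 5.55 over the flanking genes and 5.7 over all. In the order of levels, the ranges of the 2 mice separated *Ogdh* from *Igfbp3* and *Zmiz2* from *Myo1g*. The ranges of all other neighbors in that order overlapped. Beyond direct neighbors, *Igfbp3* and *H2afv* lay above *Zmiz2* in both mice, with *Ccm2* overlapping all 3, and *Myo1g* and *Nacad* lay above the listing of *Adcy1*, with *Ramp3* overlapping all 3.

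By position, the lowest levels were found next to the super-enhancer as well as far from it, and the highest level was found far away. Distances are from the *Wap* start at position 6638649 (minus strand) to the start of each gene, negative toward *Tbrg4* and positive on the super-enhancer side. The starts of the flanking genes span 922.326 kb. *Nacad*, the nearest on the *Tbrg4* side (chr11:6597823-6606054, minus strand), starts at -32.595 kb, and *Ramp3*, the nearest on the super-enhancer side (chr11:6658533-6677475, plus strand), starts at 19.884 kb. Both had mean exon FPKM of 0.25 or less. Between them, *Tbrg4* at -12.582 kb had an exon FPKM of 314.7 and 291.5, and *Wap* had 172934.6 and 234774.0.

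Further along the *Tbrg4* side lie *Ccm2* at -91.762 kb (chr11:6546887-6596761, plus strand), *Myo1g* at -117.691 kb (chr11:6506548-6520958, minus strand) and *H2afv* at -194.206 kb (chr11:6427226-6444443, minus strand). *Zmiz2* starts at -243.524 kb (chr11:6395125-6406162, plus strand) and *Ogdh* at -347.052 kb (chr11:6291597-6359094, plus strand). *Myo1g*, with a mean of 0.55 FPKM, thus lies between *Ccm2* and *H2afv*, whose means were 4.15 and 5.55. On the super-enhancer side, *Adcy1* starts at 424.784 kb (chr11:7063433-7178506, plus strand) and *Igfbp3* at 575.274 kb (chr11:7206086-7213923, minus strand). At least 1 FPKM was reached by 4 of 6 genes on the *Tbrg4* side and by 1 of 3, *Igfbp3*, on the super-enhancer side. Among all genes 48.0% reached it, and with so few genes per side neither count stands apart from that share. In RefSeq, *Purb* is a single-exon gene at -162.573 kb (chr11:6467599-6476076, minus strand).

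**Figure D2:**
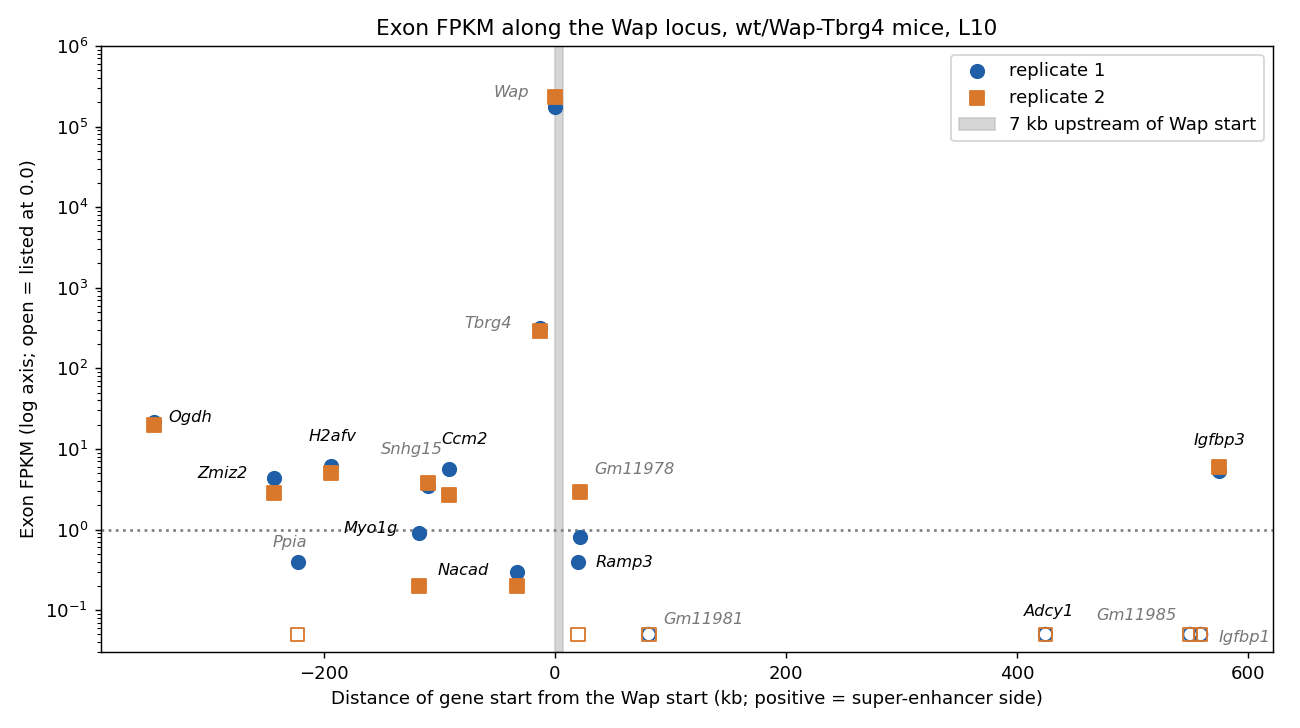
Exon FPKM (log axis) of the 17 genes with values from *Ogdh* to *Igfbp3*, against the distance of the gene start from the *Wap* start in kb. Circles are replicate 1, squares are replicate 2, open symbols are listings of 0.0 drawn at 0.05, flanking genes are named in black and other genes in grey, the dotted line marks 1 FPKM, and the grey band is the stretch of 7000 bases upstream of *Wap*. *Wap* and *Tbrg4* stand above all other genes, with *Nacad* and *Ramp3* at 0.4 or less on either side of them.

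Over the 9 flanking genes, Spearman's rho between absolute distance and mean exon FPKM was 0.417, and between distance and mean intron FPKM it was 0.177. These are descriptions over genes that share both libraries. With the 6 other genes of the stretch added, rho was 0.00902 for exons and 0.0536 for introns, and with *Wap* and *Tbrg4* added to the 9 it was negative, -0.227 and -0.362. *Wap* and *Tbrg4* are the nearest and the highest genes, which pulls the last pair of values down. On the 9 flanking genes alone, rho for exons was 0.513 in replicate 2 and 0.233 in replicate 1. If the Wap-Tbrg4 allele lacks exactly the sequence between both starts, the genes on the *Tbrg4* side lie 12.582 kb nearer on that allele, which puts *Nacad* at -20.013 kb, about as far as *Ramp3*. The values do not separate the alleles, so the level of *Nacad* on the fused allele cannot be told from that on the wt allele.

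The step from *Tbrg4* to its neighbors was large in both mice. The exon FPKM of *Tbrg4* was 7.10 times the sum of all 9 flanking genes in replicate 1 and 7.99 times that sum in replicate 2, the sums being 44.3 and 36.5 FPKM. *Tbrg4* was 14.7 and 14.9 times as high as *Ogdh*, the highest flanking gene, and 59.4 and 48.6 times as high as *Igfbp3*. It was 51.6 and 58.3 times as high as *H2afv*, 73.2 and 104 times as high as *Zmiz2*, and 56.2 and 108 times as high as *Ccm2*. None of these gaps came near the spread of either gene between replicates. Reads from the hybrid gene and from the wt *Tbrg4* gene both count toward *Tbrg4*.

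Another 6 genes with values start between *Ogdh* and *Igfbp3*, of which 2 reached a mean exon FPKM of 1. *Snhg15*, a noncoding host gene of a small nucleolar RNA at -109.889 kb, had an exon FPKM of 3.5 and 3.8. *Gm11978*, recorded as a pseudogene in RefSeq, starts at 21.587 kb and overlaps the first part of *Ramp3* on the opposite strand over 1731 bp. Its other end lies 11.499 kb from the *Wap* start. It had an exon FPKM of 0.8 in replicate 1 and 2.9 in replicate 2, about 11 and 19 reads, with counting intervals of 0.418 to 1.5 and 1.72 to 4.47 FPKM that did not overlap, while *Ramp3* was at 0.4 and 0.0. The strand setting of the counting is not given in the sources used here, so reads of *Ramp3* and *Gm11978* may not have been told apart. *Ppia*, the gene of cyclophilin A between *Zmiz2* and *H2afv*, had an exon FPKM of 0.4 and 0.0 but an intron FPKM of 1.5 and 2.4. *Gm11981*, *Gm11985* and *Igfbp1* were listed at 0.0 in exons and introns of both mice. *Igfbp1*, a relative and close neighbor of *Igfbp3*, thus differed in its listing from *Igfbp3*, which was above 5 FPKM in both mice.

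Reads in introns stand for unspliced RNA, except where an intron holds another gene, such as a small nucleolar RNA, whose reads may be counted with it. *Ogdh* had the highest intron level of the flanking genes, with an intron FPKM of 1.0 and 0.9. Both *Ccm2*, at 0.4 and 0.4, and *Zmiz2*, at 0.5 and 0.3, had a mean intron FPKM of 0.4. *H2afv* had an intron FPKM of 0.3 in both mice, and *Igfbp3* had 0.2 and 0.1. The genes with low exon levels were not all without intronic reads: *Myo1g* had an intron FPKM of 0.1 in both mice and *Nacad* had 0.2 and 0.1. *Ramp3* and *Adcy1* were listed at 0.0 intron FPKM in both mice. Over the long introns of *Adcy1*, 102759 bp in all, 0.0 allows up to about 51.6 reads in replicate 1 and 26.1 in replicate 2. *Tbrg4* had an intron FPKM of 43.4 and 51.4, and *Wap* had 121.6 and 148.1, so both were above all flanking genes in introns as well. RefSeq places the small nucleolar RNA gene *Snora5c* (101 bp) and the gene *Gm24313* (133 bp) within *Tbrg4* on the same strand, and their part in its intron value was not tested.

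For the 5 flanking genes at or above 1 FPKM, the ratio of mean intron to mean exon FPKM had a median of 0.0541, compared with 0.0652 over 9535 genes with both values. The ratio was lowest in *Igfbp3*, at 0.0265 (percentile 15.5 of these genes), followed by *Ogdh* at 0.0463 and *H2afv* at 0.0541. It was higher in *Ccm2*, at 0.0964 (percentile 68.9), and highest in *Zmiz2*, at 0.113 (percentile 75.3). In single mice the ratio of *Ccm2* was 0.0714 and 0.148, since its exon values differed between the mice and its intron value was 0.4 in both. The *Igfbp3* ratio rests on about 11 and 3 intron reads. *Tbrg4* had a ratio of 0.156, above all 5 flanking genes, and *Snhg15* had 0.986. Over the 9 flanking genes, exon and intron levels followed each other with a Spearman's rho of 0.785, a description over genes of the same libraries.

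**Figure D3:**
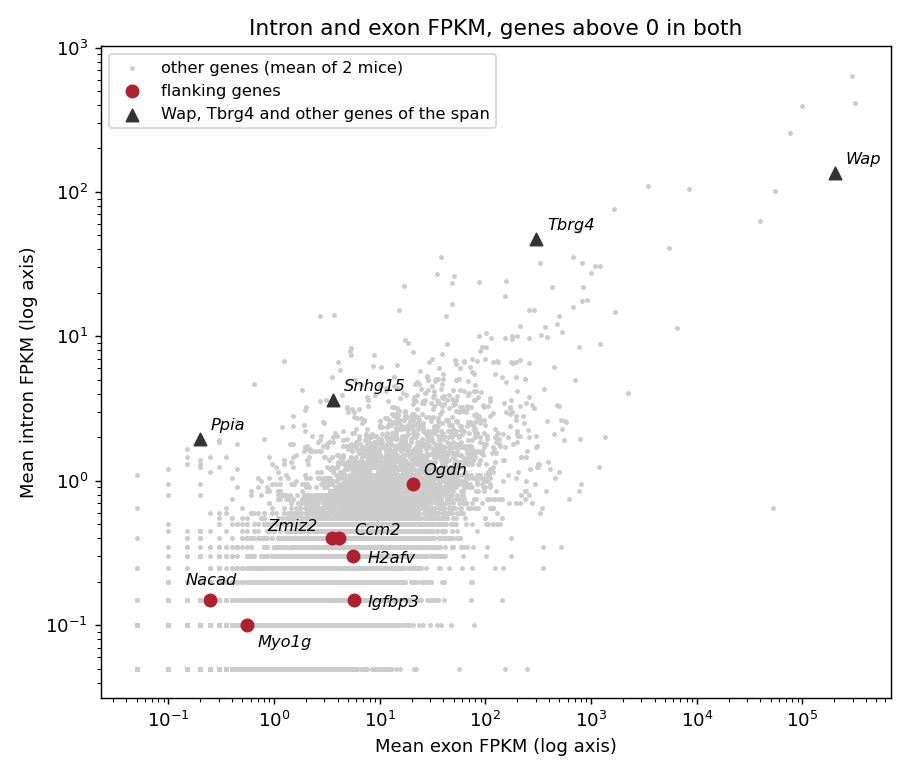
Mean intron FPKM against mean exon FPKM over the 2 mice (both log axes) for genes above 0 in both. Grey points are all other genes, red circles are the flanking genes and black triangles are *Wap*, *Tbrg4* and other genes of the stretch. The flanking genes lie within the cloud of all genes, with *Ogdh* highest at an intron FPKM of 0.95, and *Snhg15* and *Ppia* lie on its upper edge. *Ramp3* and *Adcy1* are not drawn since their introns were listed at 0.0.

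Between the mice, 4 of the 5 flanking genes at or above 1 FPKM were lower in replicate 2, compared with 55.4% of all 9845 such genes, and *Igfbp3* was higher. The log2 ratio of replicate 2 to replicate 1, on FPKM + 1, was -0.83 in *Ccm2*, -0.48 in *Zmiz2*, -0.24 in *H2afv*, -0.12 in *Ogdh* and 0.15 in *Igfbp3*. None of the 5 passed a 2-fold difference on this scale, which 5.9% of all genes did. With a pseudocount of 0.1, *Ccm2* passed it at -1.03. Over all genes, this ratio declined as exon GC content increased (Spearman's rho of -0.659). *Zmiz2* and *Ccm2* had the highest GC content of the 5, 59.3% and 56.3%, and *H2afv* the lowest, 47.2%. After a lowess correction for GC content the ratio of *Zmiz2* turned to 0.22 and that of *Ccm2* shrank to -0.36, while *H2afv* stood at -0.30 and *Igfbp3* at 0.36. After the correction 1.91% of all genes and none of the 5 passed 2-fold. *Zmiz2* and *Ccm2*, which differed between the mice beyond counting error, were thus also the 2 genes richest in GC, and the part of GC content in their difference was not tested beyond this correction. Differences between the mice compare 2 libraries of 1 genotype on the deposited scale. The ratios and the 2-fold counts were not recomputed for equal summed FPKM.

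**Figure D4:**
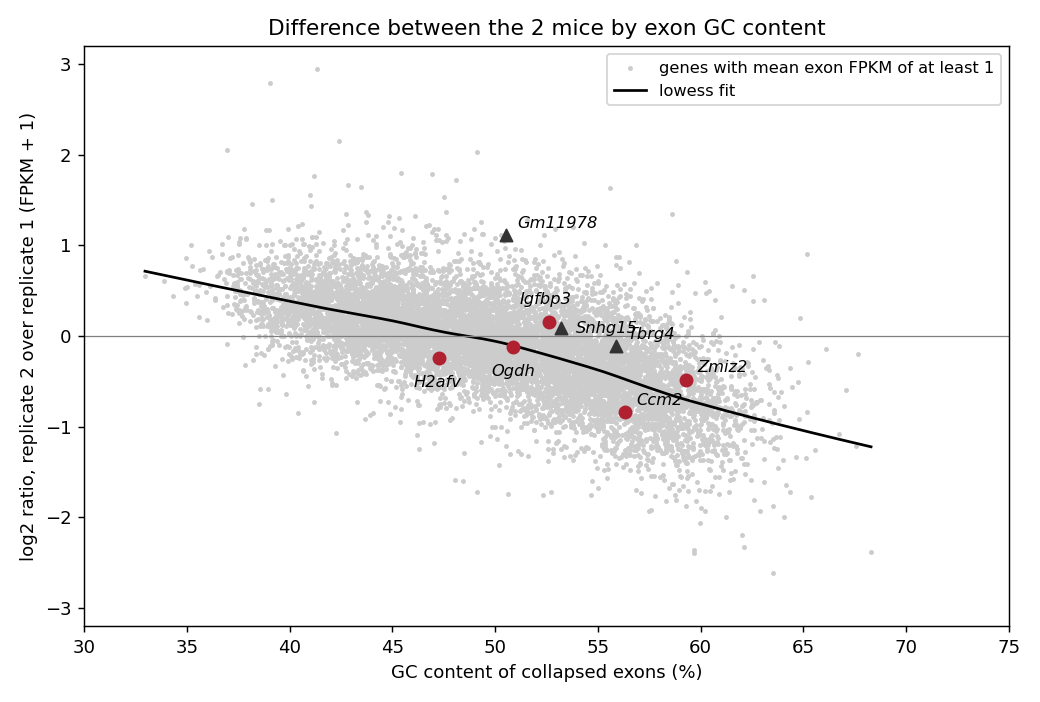
Log2 ratio of replicate 2 to replicate 1 (exon FPKM + 1) against the GC content of the collapsed exons in percent, for genes that average 1 FPKM or more in exons. Grey points are all genes, red circles the flanking genes, black triangles *Tbrg4*, *Snhg15* and *Gm11978*, and the line is the lowess fit. The fit falls with GC content, *Zmiz2* at 59.3% lies above it and *Ccm2* at 56.3% lies below it.

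Set beside their relatives, only *H2afv* among the flanking genes with values had the highest mean exon FPKM of its list. *H2afv* had a higher exon FPKM than *H2afz*, the other H2A.Z gene, which had 1.6 and 2.9. *H2afz* has 2 near-identical copies elsewhere in the genome by coding sequence, so its reads may have been split or lost, while *H2afv* has none. Of the 5 genes of the 2-oxoglutarate dehydrogenase list, 3 reached 1 FPKM. *Ogdh* stood between *Dld*, the dihydrolipoamide dehydrogenase shared with other complexes, at 41.0 and 54.9, and *Dlst*, the succinyltransferase subunit, at 13.1 and 17.8. Its paralog *Ogdhl* was listed at 0.0 in both mice. *Zmiz1* had an exon FPKM of 5.4 and 5.7, above both values of *Zmiz2*. All 5 genes of the cerebral cavernous malformation list reached 1 FPKM. The values of *Ccm2* overlapped those of its partners *Krit1*, at 2.7 and 3.0, *Pdcd10*, at 2.3 and 4.5, and *Heg1*, at 3.6 and 4.8.

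In the families of the low genes, other members carried the RNA. Of 8 class I myosins, 4 reached 1 FPKM, led by *Myo1c* at 22.0 and 15.0, and *Myo1f*, another myosin of blood cells, was near *Myo1g* at 0.9 and 0.7. *Naca* and *Btf3*, the ubiquitous subunits of the nascent polypeptide associated complex, had 7.2 and 8.3 and 10.3 and 18.9, against 0.25 on average for *Nacad*. Of the RAMP list of 5 genes, 2 reached 1 FPKM: *Ramp1* had 11.3 and 13.4, and the receptor gene *Calcrl* had 3.8 and 4.9. *Ramp2* and *Calcr* were listed at 0.0 in both mice. Of 10 adenylyl cyclase genes, 4 reached 1 FPKM, led by *Adcy9* at 9.7 and 9.4 and *Adcy6* at 6.9 and 4.2, while *Adcy1* and *Adcy8* were listed at 0.0. Of 7 *Igfbp* genes, 6 reached 1 FPKM, led by *Igfbp7* at 40.8 and 57.7. *Igfbp3* was below *Igfbp4*, at 11.2 and 9.5, and *Igfbp5*, at 9.1 and 7.0, in both mice. Of the relatives of *Purb*, *Pura* had 7.6 and 4.2 and *Purg* had 1.2 and 1.4.

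**Figure D5:**
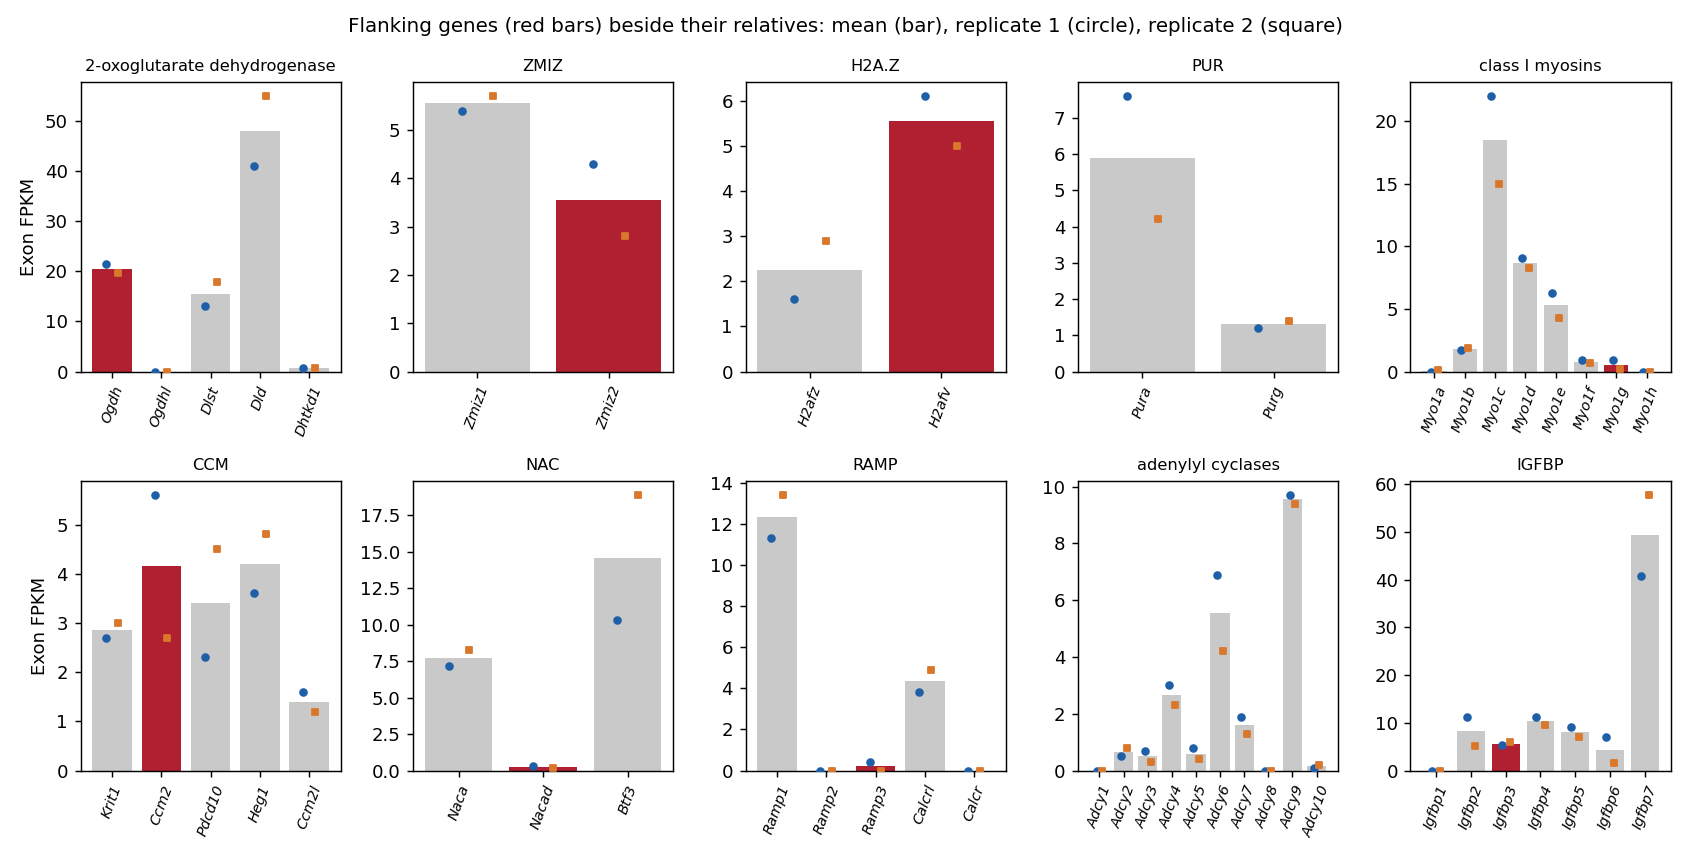
Exon FPKM of each flanking gene (red bars) and of its relatives and partners (grey bars), 1 panel per list, each with its own linear axis from 0. Bars are means of the 2 mice, circles are replicate 1 and squares are replicate 2. *H2afv* is above *H2afz*, whereas *Myo1g*, *Nacad*, *Ramp3* and *Adcy1* lie at or near 0 beside relatives of up to 18.5, 14.6, 12.4 and 9.55 FPKM.

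Promoter CpG content ran only partly along with the levels. Among the genes of the files, the median number of CpG in a 300-base promoter was 23 for 7940 genes at or above 1 FPKM and 7 for 8239 genes below it. For genes with several annotated starts, these medians take the richest. Of the flanking genes at or above 1 FPKM, *H2afv* had 27 and *Igfbp3* 37. *Ccm2* had 30 at one start and 1 at the other, and the starts of *Ogdh* ranged from 11 to 37. Of the low genes, *Myo1g* had 2, *Nacad* 6 and *Ramp3* 15. *Adcy1* was the exception, with 37 CpG at an exon FPKM of 0.0 in both mice. *Tbrg4* had 27 at its own start and *Wap* 3. The count of *Tbrg4* applies to the wt allele, since the *Wap* promoter drives the hybrid gene, whose reads also count toward *Tbrg4*.

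Of the marker lists, that of secretory epithelium had the highest sum, through the milk protein genes *Csn2* and *Lalba*. In the whole tissue, fewer cells of a type and less RNA per cell cannot be told apart. The 5 markers of secretory epithelium (*Csn2*, *Lalba*, *Krt8*, *Krt18*, *Epcam*) were all above 1 FPKM and summed to 117318.9 in replicate 1 and 490386.6 in replicate 2, of which *Csn2* made up 108555.0 and 481937.0. The other 4 were lower in replicate 2, at 8453.5 and 8265.4 for *Lalba*, 31.4 and 14.6 for *Krt8*, 145.0 and 57.6 for *Krt18* and 134.0 and 112.0 for *Epcam*. *Krt8* was below the adipocyte marker *Adipoq*, at 85.3 and 113.0, in both mice. *Krt18* and *Epcam* were above *Adipoq* in replicate 1 and below it in replicate 2. Leukocyte markers, of interest beside *Myo1g*, summed to 10.0 and 7.1 FPKM, with 3 of 5 at or above 1, *Cd3e* at 0.0 and 0.1 and *Cd79a* at 0.0 and 0.4. *Coro1a*, another leukocyte marker, was 4.4 and 1.5 FPKM, *Ptprc* was 3.0 and 3.2, and *Myo1g* was 0.9 and 0.2. The exon GC content of these genes is 58.5%, 42.0% and 55.8%, in that order. The part of GC content in their differences between the mice was not tested. Endothelial markers, beside *Ccm2*, summed to 50.5 and 43.7, with 4 of 4 at or above 1. Fibroblast markers summed to 141.2 and 137.0 (4 of 4), adipocyte markers to 98.7 and 119.9 (3 of 3) and myoepithelial markers to 43.4 and 32.5 (3 of 4, with *Acta2* listed at 0.0 in both mice). The part of these cell types in the levels of the flanking genes was not tested.

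By coding sequence, none of the 9 flanking genes with values has a near-identical copy in GRCm38, taken as at least 50% of the length at 95% identity or more, whereas *Ppia* has 17. *Ogdh* overlaps 2 annotated genes on the opposite strand, *Gm46270* over 667 bp and the pseudogene *Gm45933* over 444 bp. *Zmiz2* hosts the microRNA gene *Mir7651*.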

How the data were processed

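The authors isolated total RNA, prepared TruSeq Stranded Total RNA libraries, mapped the reads to mm10 with STAR, counted them with HTSeq on collapsed exons of UCSC known genes and on the introns between them, and generated the deposited FPKM with DESeq2. Versions, the strand setting and how multi-mapping reads were handled are not given in the sources used here. Each of 2 mice of 1 genotype has exon and intron FPKM of 20550 listed genes, with 1 decimal. Of these, 35 without a usable symbol were left out. RefSeq (GRCm38.p6) gave positions, lengths and GC content and matched 99.7% of genes, *H2afv* through its newer symbol *H2az2*.

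No test between groups was possible with 1 genotype. Values are given per mouse and as mean ± SD, with percentiles over all genes, and ratios between mice on log2(FPKM + 1) for genes with a mean of at least 1 FPKM. The GC correction was a lowess fit over 30% of the genes. The reads behind 1 FPKM were estimated from the period of low FPKM times exon length. The periods and the GC correction were tested on simulated data. Whether the mice are littermates is not stated, so the SD measures only the spread between these samples. Copies were counted with minimap2 2.31. Calculations used statsmodels 0.14.6, scipy 1.17.1, pandas 2.3.3 and numpy 2.4.6 under Python 3.11.15, with matplotlib 3.10.9 for plots.

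The flanking genes, the family lists and the marker lists were chosen with earlier results of these data known. Named are the flanking genes, *Wap* and *Tbrg4*, the 5 other genes of the stretch with the highest exon FPKM, family members that lead a list or stand beside a flanking gene, and markers. *Gm11981*, *Gm11985* and *Igfbp1* tie at 0.0 and are all named. Genes outside the stretch and overlapping genes were chosen after their values were seen. Alternatives for scaling, mean, pseudocount, filter, minimum, distance and GC content were tried, and each mouse was left out in turn.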

Additional observations from a re-analysis of the deposited data

How the results depend on the processing

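Of 41 alternative values for the summaries, 33 kept within the tolerance set for them, 6 moved and 2 turned. For median levels, the median ratio and rho the tolerance was the SD of the 2 single-mouse values, or 0.1 for rho if larger. Leaving out 1 mouse stays within it nearly by design, so those outcomes say little. A rho of 0.233 against 0.417 was thus counted as kept. A minimum of 5 FPKM left 3 of the 9 genes, while a minimum of 0.5 gave 6. Spearman's rho with distance turned to -0.227 (exons) and -0.362 (introns) with *Wap* and *Tbrg4* included and moved to 0.00902 and 0.0536 over all genes of the stretch. A pseudocount of 0.1 moved the median intron to exon ratio to 0.0708 and gave 1 gene past 2-fold between the mice, *Ccm2*. The GC correction moved the median log2 ratio between the mice to -0.017 and turned that of *Zmiz2* to 0.22; the cause was not tested. Leaving out 1 mouse gave a median exon FPKM of 2.7 to 4.3, a median intron FPKM of 0.1 to 0.2, a median ratio of 0.0492 to 0.06, 5 genes at or above 1 FPKM in either case, and a rho of 0.233 to 0.513 for exons and of 0.12 to 0.202 for introns. Of 105 alternative values for single genes, 90 kept within the tolerance set for them, 14 moved and 1 turned. For exon and intron levels the tolerance was the SD of the 2 mice. Leaving out 1 mouse or taking the geometric mean always stays within that SD, so those outcomes, most of the 105, were fixed in advance. Values of 0.0 in both mice could not move either. Where both mice had the same value above 0, the SD was 0, so any rescaling counted as a move. The counts of 90 and 14 are therefore not a measure of stability. For log2 ratios the tolerance was 0.1. The FPKM of 1 read over 1 kb, with gene sets chosen after the data were seen, was 0.0994 to 0.0997 in replicate 1 and 0.196 to 0.198 in replicate 2. No paired analysis was possible because both mice belong to the same group. The rounding to 0.1 FPKM and the smaller number of reads behind each FPKM in replicate 2 limit *Myo1g*, *Nacad*, *Ramp3* and *Adcy1* most.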

Other observations

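Beyond the flanking genes, 16 more genes with values start within 1 Mb of the *Wap* start, all of them on the *Tbrg4* side past *Ogdh*, and 10 of them reached a mean exon FPKM of 1. The highest was *Ykt6*, the gene of a SNARE protein of vesicle fusion, with 44.2 and 42.0 FPKM. *Tmed4*, a cargo receptor gene of the early secretory pathway that lies close to *Ogdh*, had 23.4 and 18.6, and its range overlapped that of *Ogdh*. *Mrps24*, the gene of a mitochondrial ribosomal protein, had 17.4 and 21.0. *Ddx56*, an RNA helicase gene near *Tmed4*, had 7.0 and 3.5, and *Dbnl*, the gene of an actin-binding adaptor, had 8.5 and 4.9. Genes of other tissues, such as *Myl7* of the heart atrium and *Npc1l1* of the intestine, were listed at 0.0 in both mice. Within 1 Mb of *Wap*, 19 of 33 genes reached 1 FPKM, compared with 48.0% of all genes. *Ykt6* was the highest of the 33 after *Wap* and *Tbrg4*.

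Of protein-coding RefSeq genes with a single exon, such as *Purb*, 30 of 2150 have values here, compared with 18280 of 18850 with several exons.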
